A study of Mus musculus with 2 samples.

Results

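Wound cells of mice with floxed Phgdh alleles, meant to be deleted in the hair follicle lineage by a Cre recombinase, were compared at 5 and 3 days post wounding (dpw). Phgdh encodes the enzyme of the first committed step of serine synthesis. A droplet barcode was taken as a cell when it held 1000 or more gene UMIs (unique molecular identifiers, each counting 1 captured transcript) from 500 or more genes, with no more than 10% of them mitochondrial. It was given to a pool when 1 hashtag had at least 20 UMIs and at least 70% of the barcode's hashtag UMIs. The rule gave 531 Phgdh fl/fl cells at 3 dpw and 1519 at 5 dpw, together 2050 of the 5887 assigned cells, out of 6900 barcodes that passed the cell filters. All 6 pools, Phgdh +/+ and Phgdh fl/fl each unwounded, at 3 dpw and at 5 dpw, came from C57B6/J mice that carried Sox9-CreER and R26-LSL-YFP. They were tagged with 6 hashtags and run in 1 single-cell 3′ capture. The Cre recombinase is driven by Sox9, so YFP marks cells that descend from Sox9-expressing follicle cells, and both wound pools were sorted alike for YFP and high integrin α6, without cells positive for CD140a, CD117, CD31 or CD45. The unwounded pools were further sorted for CD34 and CD200 and against SCA1, so they hold bulge stem cells. Animals were pooled within a hashtag, their number and age are not given in the sources used here, and each condition is 1 pool. No test was therefore made. Intervals are 95% and cover counting error only, since cells of 1 pool are not replicates.

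After a skin wound, stem cells of the hair follicle bulge leave their niche, move into the epidermis at the wound margin and contribute to its repair. On the way they lose bulge genes, express wound keratins such as Krt6a and Krt16, use integrins, laminin-332 and metalloproteinases to migrate, divide, and later make the keratins of differentiating epidermis, Krt1 and Krt10. Serine made by PHGDH feeds protein, nucleotide and glutathione synthesis, and shortage of amino acids raises translation of the transcription factor ATF4.

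The sequences that define the 2 pools are the hashtags that the cells carried, and the letters below are those against which hashtag reads were counted.
Hashtag of fl/fl 3 dpw: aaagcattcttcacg
Hashtag of fl/fl 5 dpw: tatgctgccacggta

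Promoters are shown for 2 gene groups that the results turn on. The first are collagen-degrading proteases of 1 gene cluster on chromosome 9, Mmp10 (stromelysin 2) and Mmp13 (collagenase 3). Capitals mark the letters TGANTCA, the binding motif of the AP-1 factors Fos and Jun, within the 250 bases before the RefSeq start site (GRCm38.p6, both on the plus strand).
Mmp10, chr9:7502092-7502341: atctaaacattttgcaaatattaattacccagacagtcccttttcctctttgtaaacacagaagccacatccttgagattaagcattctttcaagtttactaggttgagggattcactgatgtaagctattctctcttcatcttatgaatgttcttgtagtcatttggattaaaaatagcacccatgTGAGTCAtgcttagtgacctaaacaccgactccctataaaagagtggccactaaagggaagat
Mmp13, chr9:7272264-7272513: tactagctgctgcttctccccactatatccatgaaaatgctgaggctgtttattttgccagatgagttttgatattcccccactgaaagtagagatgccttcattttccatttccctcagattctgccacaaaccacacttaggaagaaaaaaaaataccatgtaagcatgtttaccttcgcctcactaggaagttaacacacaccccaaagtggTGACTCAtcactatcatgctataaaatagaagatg
The other group is the interferon response and MHC class I, where Isg15 (a ubiquitin-like protein induced by interferon) and B2m (the light chain of MHC class I) went opposite ways. Capitals mark copies of GAAA separated by any 2 bases, the core of the interferon-stimulated response element, ISRE. Isg15 lies on the minus strand and B2m on the plus strand.
Isg15, chr4:156200819-156201068: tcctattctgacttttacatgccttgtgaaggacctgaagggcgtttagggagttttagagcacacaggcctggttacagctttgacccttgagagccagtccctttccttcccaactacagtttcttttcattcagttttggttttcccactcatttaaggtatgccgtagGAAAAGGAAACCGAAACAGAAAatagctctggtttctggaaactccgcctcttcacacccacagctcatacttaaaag
B2m, chr2:122147437-122147686: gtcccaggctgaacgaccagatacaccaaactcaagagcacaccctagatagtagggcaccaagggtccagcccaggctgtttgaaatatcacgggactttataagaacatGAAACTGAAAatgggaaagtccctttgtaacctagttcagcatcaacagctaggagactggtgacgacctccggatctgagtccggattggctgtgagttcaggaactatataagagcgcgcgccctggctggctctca

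Over RefSeq windows that also take in the first 50 transcribed bases, TGANTCA on either strand stood in 7.81% of all 32851 promoters. It stood in 8 of the 16 metalloproteinase and plasminogen genes that matched a window by symbol. In Mmp13 it began 35 bases upstream of the start site, in Mmp3 46, in Mmp10 63 and in Mmp1b 93. The ISRE core stood in 3.44% of promoters and in 11 of 23 matched interferon and MHC genes, among them Isg15 with 3 overlapping matches and B2m with 1. Of the 6 measured genes with the ISRE core, 4 were at least 1.5-fold higher at 5 dpw (Isg15, Stat2, Bst2 and Cxcl10) and 2 at least 1.5-fold lower (Ifitm3 and B2m). The metal response core TGCNCNC, in 51.03% of promoters, was too common to show. A match describes letters and no binding.

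The 2 pools had similar depth per cell. The 3 dpw pool held 24165071 gene UMIs with a median of 43705 per cell, and the 5 dpw pool 76299151 with a median of 46053. Median mitochondrial shares were 4.20% and 4.05%. Levels are given in CPM, the gene's UMIs scaled to the same total in every pool, and a gene without a UMI could have stood at up to 0.124 CPM at 3 dpw and 0.0393 at 5 dpw. Sums over a pool cannot tell fewer cells with a transcript from less transcript per cell, so shares of cells are added where they bear on a result. Phgdh stood at 17.3 CPM (15.6 to 19.0) at 3 dpw and 21.4 (20.4 to 22.5) at 5 dpw in the fl/fl pools, against 115 and 136 in the +/+ wound pools. A UMI of Phgdh was found in 18.3% and 26.5% of the fl/fl cells and in 79.1% and 80.6% of the +/+ cells. Which exons are floxed is not given in the sources used here, so 3′ counts check the genotype labels only by this difference. The labels describe pooled male and female mice, yet no fl/fl wound cell had the Xist pattern of a female cell, whereas 29.8% of +/+ cells at 3 dpw and 22.02% at 5 dpw did. Some differences from +/+ are therefore also given against +/+ cells with Y-linked transcripts alone. All other comparisons with +/+, list medians and shares of cells among them, use all +/+ cells of the pool. All 8 basal keratinocyte markers were at 5 CPM or more in both fl/fl pools.

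Markers of cells outside the gate were low. Summed over each list, immune, fibroblast, endothelial, melanocyte and erythrocyte markers stood between 0.248 and 6.08 CPM in both fl/fl wound pools, with no marker of these lists at 5 CPM or more. The Merkel cell list stood at 12.95 CPM at 3 dpw and 7.34 at 5 dpw, with 1 of its 4 markers at 5 CPM or more and Atoh1 at 0 in both pools. Of the other lists, Cd207, Cldn5, Col3a1 and Kit were at 0 in at least 1 of the pools. The muscle and pericyte list stood at 5.59 CPM at 3 dpw and 24.2 at 5 dpw. Acta2 (smooth muscle actin) made up 2.77 and 22.8 CPM of this, while Rgs5 was at 0 in both. Acta2 stood at 6.97 and 17.9 CPM in +/+ at the same times. The part of such cells in the results below was not tested, beyond leaving out cells with markers of other types.

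Across the genome the pools differed little. Of 9268 genes whose fl/fl wound pools averaged 5 CPM or more, 229 (2.47%) were at least 1.5-fold higher at 5 dpw and 423 (4.56%) at least 1.5-fold lower, and 8616 lay between. At 2-fold the numbers were 75 (0.809%) and 182 (1.96%). The median log2 ratio of 5 over 3 dpw was -0.01. In the +/+ wound pools, 1.25% of the same genes were at least 1.5-fold higher and 2.85% lower. The direction was mostly shared between genotypes: 210 of the 423 lower genes were also at least 1.5-fold lower in +/+, and 408 were below 1 in ratio there. Among the 229 higher genes these numbers were 94 and 220. The 15 lowest and the 15 highest genes that averaged 50 CPM or more are plotted by pool.

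**Figure D1:**
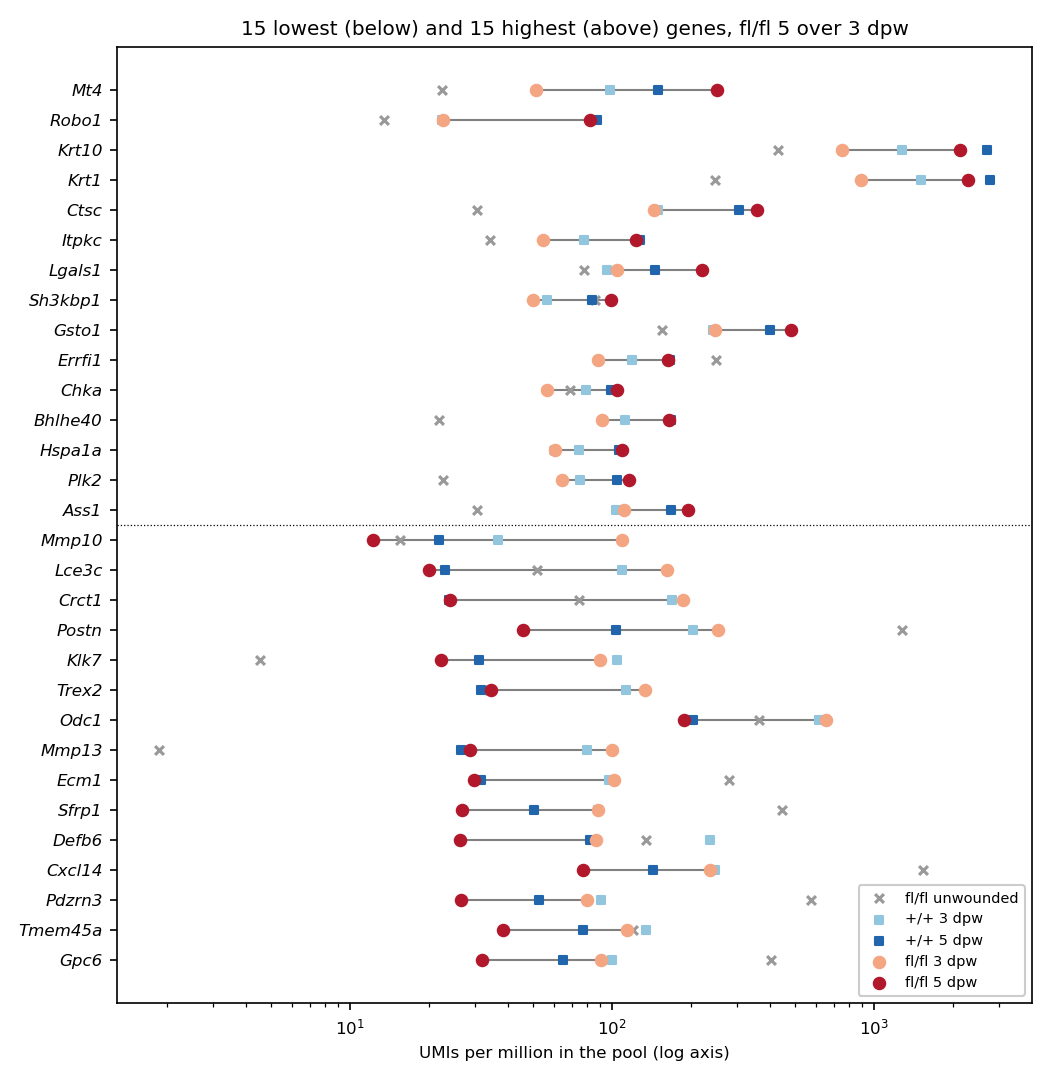
Levels in CPM (log axis) of the 15 genes with the lowest and the 15 with the highest ratio of fl/fl 5 dpw over 3 dpw, 1 point per pool, with a grey line joining the fl/fl wound pools. Postn, Cxcl14 and Sfrp1 stand highest in unwounded cells and lowest in fl/fl 5 dpw, whereas Krt1 and Krt10 stand lowest in the unwounded pools.

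Bulge stem cell genes stood lower at 5 dpw than at 3 dpw. Of the 21 measured members of the bulge identity list, 10 were at least 1.5-fold lower, against 4.56% of all genes, and none higher. The median log2 ratio of the list was -0.52. The largest differences were in Postn (periostin, a secreted matrix protein) and Cd34 (the surface sialomucin used to sort bulge cells). Postn stood at 1273 CPM in unwounded fl/fl cells, 254 at 3 dpw and 45.7 at 5 dpw, a log2 ratio of -2.47 (-2.53 to -2.41) between the wound pools. Cd34 stood at 523, 21.9 and 4.21 CPM in the same order. Both thus lay furthest from the unwounded level at 5 dpw, but the unwounded pool, unlike the wound pools, was sorted for CD34 and CD200.

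The chemokine Cxcl14 stood at 1527 CPM unwounded, 237 at 3 dpw and 77.2 at 5 dpw (log2 ratio -1.62). Krt15, the keratin of bulge and basal cells, stood at 13996, 570.3 and 254 CPM (-1.17). For Krt15 the ratio ran from -0.59 with stricter hashtag calls to -1.78 with at most 5% mitochondrial UMIs. Of the transcription factors, Nfatc1 stood at 34.1 CPM at 3 dpw and 14.8 at 5 dpw, and Lhx2 at 17.2 and 5.35. Sox9, whose promoter drives the Cre, stood at 45.5 and 50.9 CPM and so did not share their direction. In +/+ pools 6 of the 21 genes were at least 1.5-fold lower, with a median of -0.12.

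Fewer cells carried these transcripts at 5 dpw. With every cell thinned to 5000 UMIs, Cd34 was expected in 87.6% of unwounded fl/fl cells, which were sorted for CD34. The shares were 11.4% of 517 fl/fl cells at 3 dpw and 2.74% of 1498 at 5 dpw. For Postn the shares were 35.6% and 13.3%, and for Krt15 35.0% and 28.8%. Without thinning, 28.2% and 11.6% of cells had a Cd34 UMI. In activated keratinocyte-like cells, which should lack it, Cd34 stood at 0.527 and 0.710 CPM. Within cells clustered as bulge stem cell-like, 70 at 3 dpw and 67 at 5 dpw, Postn stood at 1839.7 and 1123 CPM (log2 ratio -0.71) and Krt15 at 6652 and 5650 (-0.24). For both genes the ratio within that class was thus nearer to 0 than that of the whole pools. At a coarser clustering Postn stood at -0.36 and the direction of Krt15 turned, to 0.68. Cd34 stood at 165 and 81.0 CPM within the class (-1.02). The bulge identity list went both ways there, with 8 of 26 members at least 1.5-fold higher and 6 lower (median 0.11). Of all genes measured in the class, 19.1% were higher and 17.8% lower.

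Genes of the upper follicle and junctional zone, the segment above the bulge, were lower in the whole pools. Of 12 measured members 7 were at least 1.5-fold lower, against 4.56% of all genes, and none higher. Their median was -0.69 (-0.27 in +/+). Krt79, a keratin of the follicle opening, stood at 171 CPM at 3 dpw and 84.1 at 5 dpw. The antimicrobial peptide gene Defb6 stood at 86.5 and 26.3 CPM, with 52.8% of its UMIs at 3 dpw in 5 cells. The junctional stem cell marker Lrig1, a brake on EGF receptors, stood at 44.5 and 27.2 CPM in fl/fl and at 47.4 and 45.0 in +/+. Within bulge stem cell-like cells the direction was the other, with 8 of 13 measured members at least 1.5-fold higher (median 0.86, against 19.1% of all genes there). In that class Krt79 stood at 31.7 and 385 CPM and Lrig1 at 75.8 and 137. The class had a median of 20103.5 UMIs per cell at 3 dpw and 14149 at 5 dpw. Which cells fall into the class can set such values, and that part was not tested.

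**Figure D2:**
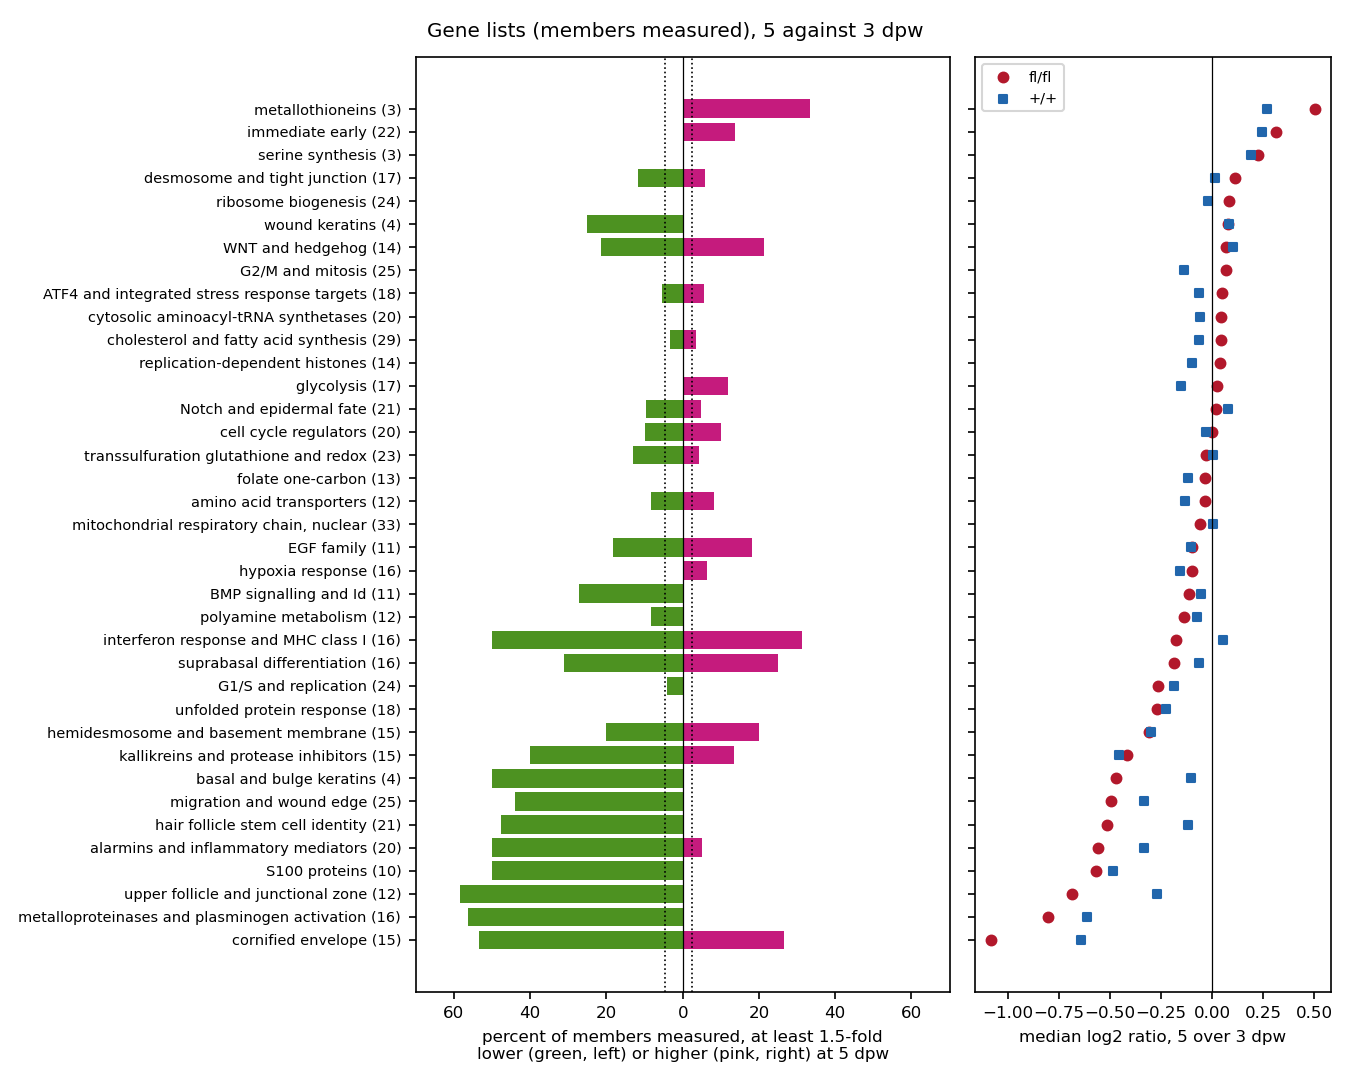
Left, percent of the measured members of each gene list (number in brackets) at least 1.5-fold lower (green) or higher (pink) at 5 dpw in fl/fl, with dotted lines at the 4.56% and 2.47% of all measured genes. Right, median log2 ratio of 5 over 3 dpw per list in fl/fl and +/+, running from -1.08 for the cornified envelope to 0.50 for the metallothioneins in fl/fl.

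Differentiation genes went both ways. Of 16 measured suprabasal genes 4 were at least 1.5-fold higher at 5 dpw, the early keratins Krt1 and Krt10 among them, and 5 were lower. Of all genes 2.47% were higher and 4.56% lower. The suprabasal list had a median of -0.19. Krt1 stood at 246 CPM unwounded, 888 at 3 dpw and 2269 at 5 dpw, a 2.55-fold difference between the wound pools (log2 1.35, 1.33 to 1.37). Krt10 stood at 429, 754 and 2113 CPM (log2 1.49). In +/+ the pools stood at 1499.6 and 2771 CPM for Krt1 and at 1275 and 2691 for Krt10, so the fl/fl level was below the +/+ level at each time. Dsg1a, a desmosomal cadherin of suprabasal layers, stood at 68.9 and 113 CPM.

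More cells were in the Krt1 and Krt10 range at 5 dpw. At least 10 UMIs of the pair in 10000 were expected in 12.5% of 506 fl/fl cells at 3 dpw (9.70 to 15.6) and in 32.0% of 1478 at 5 dpw (29.6 to 34.4). In +/+ the shares were 15.96% and 31.5%, and among the 69 unwounded fl/fl cells deep enough the share was 7.25%. This is a range of a continuous level, with 14 and 55 fl/fl cells within 8 to 12 UMIs. At 1 UMI the share was no guide, since Krt1 was expected in 46.6% of unwounded fl/fl cells thinned to 5000 UMIs, above the 36.9% of fl/fl cells at 3 dpw. Unthinned, 26.9% and 49.7% of fl/fl wound cells had at least 10 UMIs of the pair.

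Of 15 measured cornified envelope genes 8 were at least 1.5-fold lower and 4 higher, against 4.56% and 2.47% of all genes, with a median of -1.08. Crct1, of the epidermal differentiation complex, stood at 185 CPM at 3 dpw and 24.0 at 5 dpw (log2 -2.95), but 82.9% of its UMIs at 3 dpw came from 5 cells. Without the 5 top cells of each pool the ratio was -1.80. Lce3c stood at 161 and 19.99 CPM with 98.2% of its UMIs at 3 dpw in 5 cells, and its direction reversed to 0.57 without them. The lower Lce3c level thus rests on a handful of cells.

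Some other genes of late differentiation shared the direction, and others did not. Klk7, a protease that sheds corneocytes, stood at 89.7 and 22.2 CPM (-2.02, between -2.85 and -1.29 over the alternatives), and Ivl, involucrin, at 32.0 and 10.9. Cnfn (cornifelin) stood at 272 and 97.9 CPM in fl/fl and 325 and 108 in +/+. Against these, the small proline-rich genes Sprr2d (71.0 and 122 CPM) and Sprr2a3 (124 and 209.8) were higher at 5 dpw. Tchh was higher too, with a log2 ratio of 1.63 (between 1.46 and 1.80 over the alternatives). Its ratio was 0.82 within activated keratinocyte-like, 2.53 within bulge stem cell-like and 0.90 within wound edge-like cells. Reads of Lce3 and Sprr2 genes may be shared among near-identical copies, so single members of these families are uncertain.

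**Figure D3:**
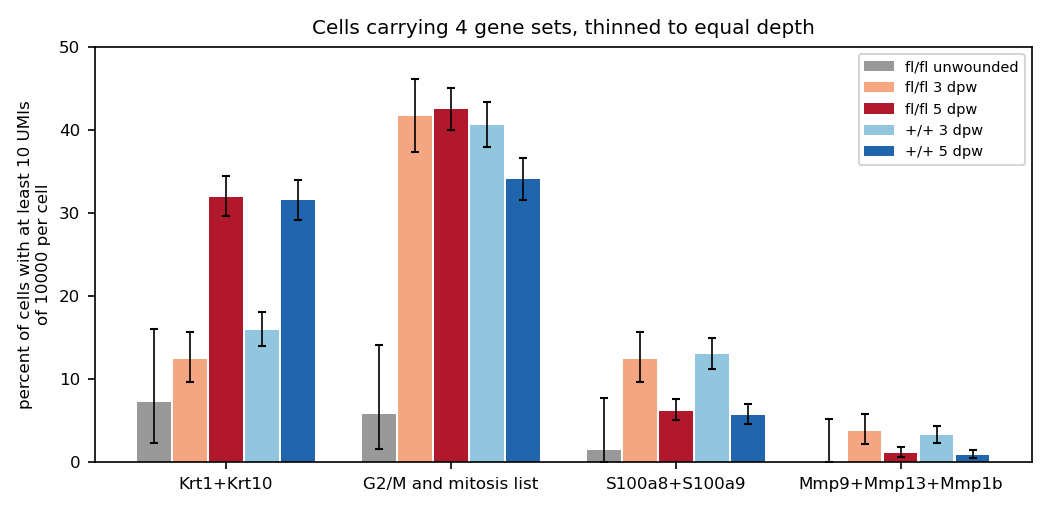
Percent of cells expected to hold at least 10 UMIs of a gene set when each cell is thinned to 10000 UMIs, by pool, with 95% exact binomial intervals (counting error only). For Krt1 with Krt10 the fl/fl share is 12.5% at 3 dpw and 32.0% at 5 dpw, and for the G2/M list 41.7% and 42.6%.

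Genes of the migrating wound edge were lower at 5 dpw. Of 16 measured metalloproteinase and plasminogen genes 9 were at least 1.5-fold lower and none higher (median -0.80, and -0.61 in +/+). Of 25 migration genes 11 were lower and none higher. The share of all genes that were lower was 4.56%. Mmp10, whose promoter is printed above, stood at 15.5 CPM in unwounded fl/fl cells, 109 at 3 dpw and 12.2 at 5 dpw (log2 -3.15, -3.26 to -3.04). In +/+ it stood at 36.7 and 21.8 CPM. Mmp13 stood at 1.86, 99.6 and 28.6 CPM in fl/fl and at 80.3 and 26.4 in +/+.

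These levels come from few cells, in the unwounded pool as well. Without thinning, an Mmp10 UMI was found in 1.33% of unwounded fl/fl cells, 12.4% at 3 dpw and 6.65% at 5 dpw. At 3 dpw 5 cells held 41.8% of the Mmp10 UMIs and 56.9% of the Mmp13 UMIs. The log2 ratio was -2.40 for Mmp10 and -0.90 for Mmp13 with Seurat's HTODemux hashtag calls, and -0.99 for Mmp13 without cells that carried markers of other cell types. At least 10 UMIs of Mmp9, Mmp13 and Mmp1b in 10000 were expected in 3.75% of fl/fl cells at 3 dpw (2.28 to 5.80) and 1.15% at 5 dpw (0.671 to 1.84). Within wound edge-like cells, 76 at 3 dpw and 97 at 5 dpw, Mmp10 stood at 577 and 109 CPM and Mmp13 at 536 and 261. Both were thus lower within that class as well.

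Among other genes of this group, Inhba (the activin A subunit) stood at 40.02 and 9.12 CPM, Itga2 (a collagen-binding integrin) at 51.6 and 24.9, and Lamb3 (laminin-332) at 215 and 116. Lamb3 stood at 223 and 112 CPM in +/+, about as in fl/fl. Col7a1, the anchoring fibril collagen of the basement membrane, went the other way with 22.4 and 47.8 CPM in fl/fl and 23.2 and 46.3 in +/+. Odc1, ornithine decarboxylase of polyamine synthesis, stood at 653 CPM at 3 dpw and 187 at 5 dpw (log2 -1.80), and at 613 and 204 in +/+. It was the only 1 of 12 measured polyamine genes at least 1.5-fold apart (8.33%, where 4.56% of all genes were lower). Within wound edge-like cells Odc1 stood at 2416 and 956 CPM.

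In the whole pools 3 of 4 wound keratins lay within 1.5-fold. Krt6a stood at 7165 CPM at 3 dpw and 7438 at 5 dpw and Krt16 at 10507 and 11286, whereas Krt17 stood at 3538 and 1925 (log2 -0.88, and -0.60 in +/+). The basal keratins Krt5 (4998 and 5955 CPM) and Krt14 (25342 and 29663) were a little higher at 5 dpw. Within wound edge-like cells all 4 wound keratins were lower (median -0.72), with Krt16 at 6189 and 2699 CPM.

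Inflammatory mediators of keratinocytes were mostly lower. Of 20 measured alarmins and mediators 10 were at least 1.5-fold lower and 1 higher, against 4.56% and 2.47% of all genes, with a median of -0.56. S100a8, a subunit of the antimicrobial complex calprotectin, stood at 102 CPM unwounded, 280.3 at 3 dpw and 155 at 5 dpw in fl/fl, and at 371 and 117 in +/+. S100a9, its partner, stood at 441 and 239 CPM in fl/fl and at 600.3 and 193 in +/+. The fl/fl wound pools thus lay between the +/+ pools for both genes. Of unwounded fl/fl cells, 7.97% had an S100a8 UMI and 1 cell held at least 10 UMIs of the pair. The unwounded S100a8 level thus rests on few cells. Il24, an IL-20 family cytokine, stood at 166 and 63.7 CPM, and the protease inhibitor Slpi at 231 and 106. For Slpi 77.1% of the UMIs at 3 dpw were in 5 cells, and its ratio reversed to 0.35 without the top cells. The IL-36 gamma gene Il1f9 was the member that was higher, at 27.9 and 51.05 CPM.

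Members of the interferon and MHC list went both ways. Of 16 measured members 8 were at least 1.5-fold lower and 5 higher in fl/fl, against 4 higher and none lower in +/+. Of all genes 4.56% were lower and 2.47% higher in fl/fl. All 6 measured MHC class I and antigen-processing genes were among the lower members, with Ifitm3 and Ifi27. B2m stood at 198 CPM unwounded, 187 at 3 dpw and 97.2 at 5 dpw (log2 -0.95), and at 201 and 151 in +/+. The heavy chain gene H2-K1 stood at 269 and 156 CPM, and H2-D1 at 336 and 219; these near-identical genes may share reads.

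The immunoproteasome subunit Psmb8 stood at 18.6 and 7.54 CPM, Psmb9 at 10.0 and 4.29, and the peptide transporter Tap1 at 16.6 and 9.33. Ifitm3, a membrane protein that blocks virus entry, stood at 509 and 222 CPM in fl/fl and 442 and 325 in +/+. The share of fl/fl cells expected to have a B2m UMI at 5000 UMIs was 55.9% at 3 dpw and 37.0% at 5 dpw, and 57.0% and 49.9% in +/+. B2m was also lower within activated keratinocyte-like cells (143 and 57.0 CPM) and wound edge-like cells (102 and 41.0), but not within bulge stem cell-like cells (223 and 292).

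The 5 higher members were Irf1, Stat2, Bst2, Isg15 and Cxcl10, all at low levels. Irf1 stood at 35.5 and 58.3 CPM, Stat2 at 6.66 and 10.9, Bst2 (tetherin) at 4.39 and 9.12, and Isg15 at 8.81 and 14.8. The chemokine gene Cxcl10 stood at 17.7 and 28.9 CPM in fl/fl and at 8.28 and 36.7 in +/+, a log2 ratio of 0.71 against 2.15. Isg15 likewise stood at 2.40 and 9.17 CPM in +/+ (1.93 against 0.75 in fl/fl). A cluster without a class name, with Cxcl10 among its 10 top genes, held 4 fl/fl cells at 3 dpw and 122 at 5 dpw. Another, with Isg15 and Bst2 among them, held 1 and 8. Irf1 was higher within wound edge-like cells as well (25.4 and 51.3 CPM).

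**Figure D4:**
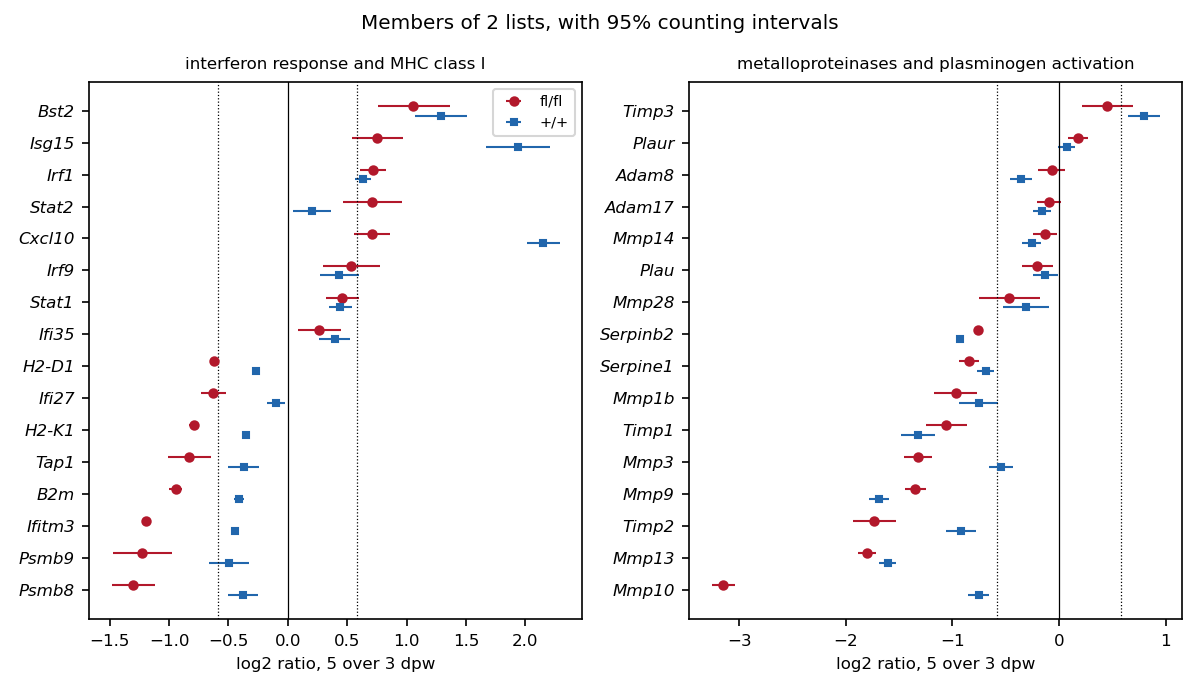
Log2 ratio of 5 over 3 dpw for each measured member of 2 lists in fl/fl (red circles) and +/+ (blue squares), with 95% counting intervals and dotted lines at 1.5-fold. In the interferon and MHC list, B2m, H2-K1 and Psmb8 lie left of 0 and Isg15, Irf1 and Bst2 right of it; Mmp10 has the lowest value of its list in fl/fl, -3.15.

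Among genes that averaged 50 CPM or more, Mt4, a metallothionein of stratified epithelia, had the highest ratio. Mt4 stood at 22.3 CPM unwounded, 51.3 at 3 dpw and 252 at 5 dpw in fl/fl (log2 2.30, 2.21 to 2.38), and at 98.1 and 149 in +/+. At 3 dpw 69.7% of its UMIs were in 5 cells, and without the top cells the ratio was 3.77. The share of fl/fl cells expected to hold Mt4 at 5000 UMIs was 6.19% at 3 dpw and 16.7% at 5 dpw. Mt1 and Mt2, the metallothioneins made in most cells, stood at 1643 and 2325 CPM and at 646 and 843.

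Robo1, a receptor for the guidance protein Slit, stood at 22.6 CPM at 3 dpw and 82.5 at 5 dpw, and at 22.4 and 87.2 in +/+. Over the alternatives its log2 ratio ran from 1.87 to 2.69. The lysosomal protease gene Ctsc (cathepsin C) stood at 144 and 357 CPM and was expected in 37.5% and 64.6% of fl/fl cells at 5000 UMIs. Lgals1, galectin-1, stood at 104 and 221 CPM, and Gsto1, an omega-class glutathione transferase, at 246 and 479. Wnt5a, a WNT ligand linked to differentiation and migration, stood at 21.2 and 54.0 CPM. All 5 genes were higher in +/+ at 5 dpw too.

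Few metabolic or stress genes were 1.5-fold apart in the pools, and few of all measured genes were (2.47% higher and 4.56% lower). All 3 serine synthesis genes lay within 1.5-fold: Psat1 stood at 82.2 and 87.7 CPM and Psph at 110.2 and 129 in fl/fl, and at 78.4 and 81.2 and at 113 and 129 in +/+. None of 13 folate genes, 20 cytosolic aminoacyl-tRNA synthetases, 18 unfolded protein response genes or 33 respiratory chain genes was 1.5-fold apart in either direction, although 17 of the 18 unfolded protein response genes lay below 1 in ratio (median -0.27). Within bulge stem cell-like cells 7 of 13 folate genes, 8 of 20 synthetases and 11 of 16 glycolysis genes were at least 1.5-fold lower. Of all genes measured in that class 17.8% were. Within wound edge-like cells 6 of 13 folate genes were at least 1.5-fold higher, against 15.3% of all genes there. Phgdh itself stood at 8.64 and 35.8 CPM within wound edge-like cells, but at 21.1 and 10.8 within activated keratinocyte-like cells. At the coarser clustering its direction in the latter class turned, to a log2 ratio of 0.30. In the whole fl/fl pools 5 cells held 25.9% of the Phgdh UMIs at 3 dpw and 7.41% at 5 dpw. Levels within a class can thus rest on few cells, and that part was not tested. Of 18 measured ATF4 targets 1 was at least 1.5-fold higher, Nupr1 (125 and 197 CPM), and 1 lower, Stc2 (6.29 and 3.997). Atf4 itself stood at 128 and 141 CPM. In glycolysis 2 of 17 genes were higher, the glucose transporter Slc2a1 (176 and 274 CPM) and hexokinase Hk2 (146 and 248). The urea cycle enzyme gene Ass1, which makes argininosuccinate, stood at 111 and 194 CPM, and Gsta4, which detoxifies lipid aldehydes, at 764 and 393. Of 22 immediate early genes 19 lay above 1 in ratio (median 0.31), 3 were at least 1.5-fold higher and none lower, with Btg2, an antiproliferative gene, at 219 and 364 CPM and the chaperone Hspa1a at 60.6 and 109.

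Summed over each pool, mitosis genes stood at close levels at both times, but within the classes large enough to compare they did not. In the pools none of 25 mitosis genes was 1.5-fold apart, where 2.47% of all genes were higher and 4.56% lower. The mitosis list had a median log2 ratio of 0.07 (-0.14 in +/+), and Mki67, a marker of cycling cells, stood at 134 and 146 CPM. At least 10 UMIs of the G2/M list in 10000 were expected in 41.7% of fl/fl cells at 3 dpw (37.4 to 46.1) and 42.6% at 5 dpw (40.02 to 45.1). In +/+ the shares were 40.7% and 34.1%. Replication genes were slightly lower, with 23 of 24 measured genes below 1 in ratio, 1 at least 1.5-fold lower and a median of -0.27. Pcna, the sliding clamp of DNA polymerase, stood at 115 and 88.9 CPM.

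Within bulge stem cell-like cells all 25 mitosis genes and all 25 replication genes were at least 1.5-fold lower at 5 dpw, with medians of -2.57 and -1.96, against 17.8% of all genes measured in that class. Within wound edge-like cells 20 of 25 mitosis genes (median 0.74) and 7 of 25 replication genes (median 0.37) were at least 1.5-fold higher, against 15.3% of all genes there. Within activated keratinocyte-like cells 16 of 21 measured mitosis genes were higher (median 0.95, against 4.48% of all genes). Mki67 stood at 126 and 41.9 CPM in bulge stem cell-like cells and at 112 and 204 in wound edge-like cells. The classes were clustered on these same cells, so which cycling cells fall into a class can set such values, and that part was not tested. The cycling cell-like cluster, with 35 fl/fl cells at 3 dpw and 149 at 5 dpw, was too small at 3 dpw to be compared. Most cells of both fl/fl wound pools lay outside the compared classes, so these values do not show how the pools' mitosis transcripts divide.

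The difference between times was then set against that in +/+. The log2 ratio in fl/fl was at least 1.5-fold above that in +/+ for 84 of the 9268 genes (0.906%) and at least 1.5-fold below for 157 (1.69%), and no test of the difference is possible with 1 pool each. Among genes that averaged 50 CPM or more over the 4 wound pools, the 10 with the lowest difference included bulge genes: Postn (-1.50), Alcam, an adhesion molecule (-1.03), Ptn, the growth factor pleiotrophin (-0.95), Krt15 (-0.91) and Cxcl14 (-0.83). Mmp10, which averaged less, had a difference of -2.39. Ptn stood at 155 and 56.7 CPM in fl/fl and at 167 and 118 in +/+. For these genes the 5 dpw level thus lay further below the 3 dpw level in fl/fl than in +/+.

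For the bulge genes named above, the difference depended on which +/+ cells were used. Against +/+ cells with Y-linked transcripts alone, the difference was -0.86 for Postn, -0.79 for Alcam, -0.54 for Ptn, -0.31 for Krt15 and -0.25 for Cxcl14, and the number of genes at least 1.5-fold below was 98. The part of sex, and of which animals were pooled, was not tested. On the other side stood Mt4 (1.69), Sprr2d (1.10), Cst6, the inhibitor cystatin M (0.96), Mxd1, an antagonist of Myc (0.85), and S100a8 (0.80). Cst6 stood at 291 and 222 CPM in fl/fl and at 857 and 337 in +/+, so here the fl/fl pools differed less. Against +/+ cells with Y-linked transcripts the values were 1.33 for Mt4, 0.90 for Sprr2d, 1.44 for Cst6, 0.41 for Mxd1 and 0.83 for S100a8.

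**Figure D5:**
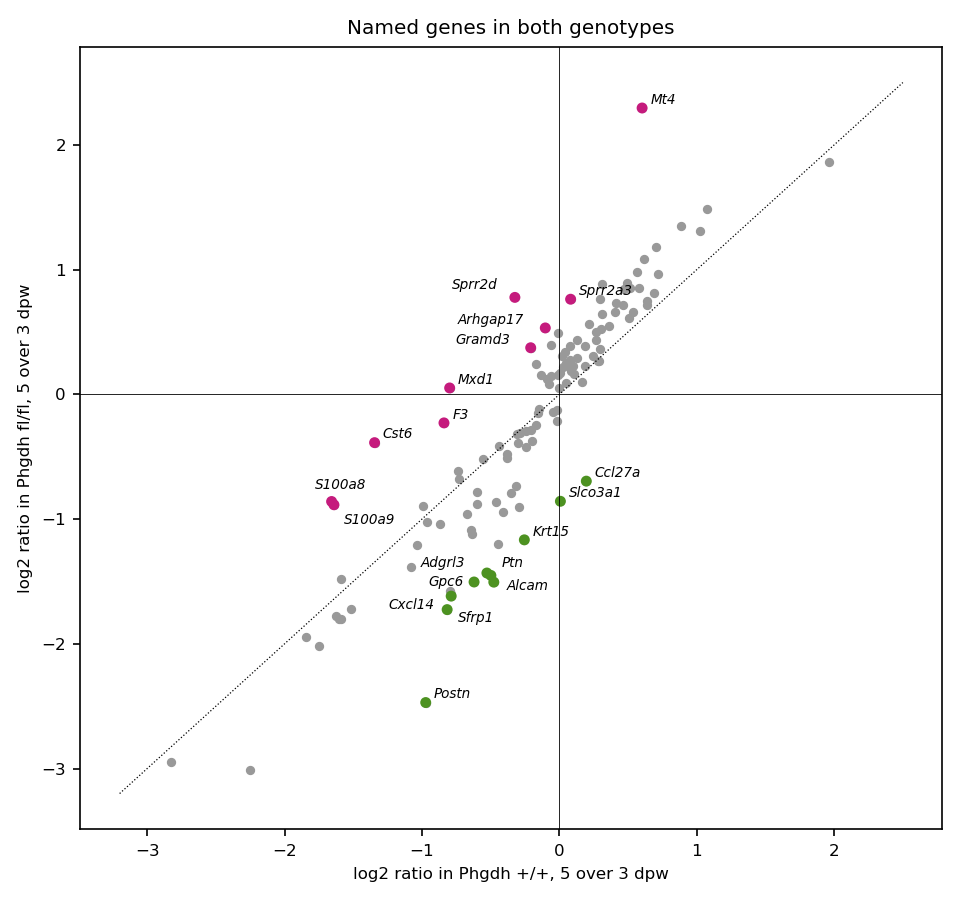
Log2 ratio of 5 over 3 dpw in fl/fl (vertical) against +/+ (horizontal) for named genes that averaged 50 CPM or more over the 4 wound pools; the dotted line marks equal ratios. The 10 genes furthest above the line (pink) include Mt4 and Cst6, and the 10 furthest below (green) include Postn and Krt15.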

How the data were processed

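The authors deposited 1 matrix of raw UMI counts per barcode for genes and hashtags. The submitters' processing notes name Cell Ranger 7.1.0, Seurat 4.3.0 and mm10. The labels name TotalSeq-B hashtags, whereas the deposited feature reference lists oligos CMO301 to CMO306. No value column was left unused.

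Counts were summed per pool and scaled to CPM (Python 3.11.15, numpy 2.4.6, scipy 1.17.1). Log2 ratios have exact conditional binomial intervals, and differences between genotypes have normal ones. Genes needed a mean of 5 CPM over both fl/fl wound pools. Shares of cells are the hypergeometric expectation of thinning to 10000 (gene sets) or 5000 UMIs (single genes), rounded to whole cells, with exact Clopper-Pearson intervals. Classes came from Leiden clusters (scanpy 1.11.5) and needed 50 cells in each pool. Hashtag doublets were reduced, not removed, by the 70% rule: 78 cells at 5 dpw had 70 to 75% of hashtag UMIs from 1 tag. Doublets within a hashtag remain and were examined by leaving out the 5% of cells with most UMIs.

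Named were the 15 highest and 15 lowest ratios at a mean of 50 CPM or more, up to 4 members per list at 20 CPM or more by size of ratio, the 10 highest and 10 lowest differences from +/+, serine, keratin and stem cell genes fixed by name, and further members to say how a list divided, chosen after their values were seen. Members and lists were chosen with earlier results of these data known. Of 697 list symbols 4 were matched by synonym and 1 was not. Alternatives included HTODemux (Seurat 5.3.0) and TMM (edgeR 4.0.16). The ratio was checked on simulated counts.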

Additional observations from a re-analysis of the deposited data

Results flagged for a closer look

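For 11 named genes the ratio of 5 over 3 dpw lay above 1 in 1 genotype and below 1 in the other, with both counting intervals leaving out 1. The difference was not tested, since each condition is 1 pool. Ccl27a, a skin chemokine, stood at a log2 ratio of -0.70 in fl/fl and 0.20 in +/+. Sprr2d stood at 0.78 and -0.32, Arhgap17 at 0.53 and -0.10, and Gramd3 at 0.37 and -0.21. Against +/+ cells with Y-linked transcripts alone, the difference of log2 ratios was -0.11 for Ccl27a, 0.90 for Sprr2d, 0.38 for Arhgap17 and 0.25 for Gramd3. Of cell division genes, Mki67 stood at 0.13 and -0.09, Cenpe at 0.24 and -0.17, Bub1b at 0.20 and -0.18, Tpx2 at 0.15 and -0.13, and the histone gene Hist1h1b at 0.0832 and -0.0781. The fl/fl ratio turned below 1 under at least 1 alternative for Mki67 (-0.038), Bub1b (-0.039), Tpx2 (-0.095), Hist1h1b (-0.142) and Mthfd1l (-0.029). Mthfd1l, of mitochondrial folate metabolism, stood at 0.22 and -0.27, and Atf4 at 0.15 and -0.06.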

How the results depend on the processing

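No paired analysis was possible because each condition is 1 pool. With HTODemux hashtag calls, 142 reported values moved by less than their counting interval or margin, 67 moved further and 0 reversed. With stricter hashtags (50 UMIs and 90%) these were 83, 123 and 3, with 318 genes higher and 394 lower, and with equal weight per cell 111, 98 and 0. With any UMI in both pools as the only filter, 2033 genes were at least 1.5-fold higher and 3455 lower, and 1048 and 2048 at 2-fold. With at least 50 CPM these were 41, 88, 8 and 33, since fewer genes were measured. The median of the BMP list reversed to 0.01 with 50 CPM (0.0112) and with stricter hashtags (0.00651), that of the interferon list to 0.0842 with stricter hashtags and to 0.71 with no minimum, and that of basal and bulge keratins to 0.23 with 50 CPM. Slpi reversed to 0.348 with stricter hashtags and 0.347 without its 5 top cells, and Lce3c to 0.11 in cells without a Phgdh UMI and to 0.57 without its 5 top cells. Against +/+ cells with Y-linked transcripts, 98 genes lay at least 1.5-fold below and the difference for the hypoxia list was -0.0043. Within classes at the coarser clustering, values at least 1.5-fold apart reversed for Phgdh in activated keratinocyte-like cells (0.30), for Ass1 (-0.61), Gramd3 (-0.25) and Il24 (-0.58) in bulge stem cell-like cells and for Krt1 in wound edge-like cells (0.0933). At 5 and 20 UMIs the Krt1 with Krt10 share was 17.2% and 9.49% at 3 dpw and 38.0% and 26.6% at 5 dpw, the G2/M share 50.8% and 28.5% and then 50.6% and 29.1%, the S100a8 with S100a9 share 18.6% and 7.71% and then 10.96% and 2.91%, and the metalloproteinase share at 5 dpw 2.44% and 0.541%. The causes were not tested. A floor of 3 UMIs and the 531 cells at 3 dpw limit genes of low level.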
